A study of Mus musculus with 12 samples.

Results

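Chromosome 8 of the mouse, outside the dense stretch between 19 and 21 Mb, held 371 of the 4973 regions listed for FLAG-tagged Zscan4 in mouse embryonic stem (ES) cells. A region is an interval of the mm10 genome that the authors' peak list reports as bound, and its midpoint decided where it was counted. The members were all regions of chromosome 8 whose midpoint lay below 19 Mb or at 21 Mb and above, and the 90 regions between those limits were left out. Chromosome 8 was chosen because it carried many regions, so its count is given as a description with no test. The 17 other autosomes except chromosome 1 held 3809 regions and serve as the comparison. Just inside the lower limit lay a region at 18910567 to 18910945 (score 34), and just outside it one at 19033030 to 19033314 (score 29). At the upper limit the first member lay at 21711249 to 21711876 (score 42), and the last region left out at 20997985 to 20998368 (score 51).

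The cells were J1, a mouse ES cell line whose strain is labelled 12910la, transfected with 1000 ng of a plasmid in which the coding sequence of Zscan4c sits in a pCMV-FLAG vector. Selection in 500 ug/ml G418 began 24 h later and lasted 10 days, and monoclonal cells were picked, so the line may carry what is peculiar to a clone. The peak list used here was matched by its region names to the anti-FLAG immunoprecipitation of the Zscan4-overexpressing cells. An input of the same genotype is labelled, but whether it served as the control of the list is not stated. The other 10 of the 12 labelled samples, which cover histone marks and their inputs in overexpressing and wild-type cells, were not analysed here. With 1 sample in each group there is no replicate, and all comparisons below set 1 chromosome against the others within 1 library, with no p-value. Read depth is unknown, and intervals cover counting error only.

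Zscan4c carries a SCAN domain and zinc fingers, with which it binds DNA. It is made in the mouse embryo when the embryonic genome is first transcribed and, for short periods, in a small fraction of ES cells, where it helps to maintain telomeres. Mouse chromosomes have their centromere at one end, which is the low end of the coordinates. Chromosome 8 is a chromosome of which mouse ES cell cultures are known to gain an extra copy. Copy number and the mapping of reads were not measured here, so a share by size assumes that both are equal along all autosomes. Chromosome 8 carries the defensin genes, which encode antimicrobial peptides of gut and epithelia, the carboxylesterase genes, several cadherins, and the Fto and Iroquois genes.

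The label of a chromosome without its defensin stretch holds only in part. The limits of 19 and 21 Mb removed 13 of the 24 annotated beta-defensin (Defb) genes and none of the 28 alpha-defensin (Defa) genes of chromosome 8. The alpha-defensin genes lie from 21025545 to 21735471, beyond the upper limit. From the first of these genes to the last beta-defensin gene at 21948622, a span of 0.923 Mb, there were 4 members with scores from 29 to 42. No region was listed between 20998368 and 21711249, where most alpha-defensin genes lie, so the defensin genes are divided between the stretch left out and the regions described here.

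Promoters with a member are shown first, because they are the sites at which a listed region covers the start of a gene. Promoter windows run from 250 bases before to 50 bases after a gene's start (RefSeq, GRCm38.p6), and the table used holds one for 708 of the 1020 protein-coding genes of chromosome 8 outside the dense stretch. Among the 1420 windows of chromosome 8 outside the dense stretch, members overlapped those of 2 genes, both on the minus strand. The same count is not given here for the other autosomes, so whether 2 is few or many cannot be said. The overlapped windows are those of Defb11, a beta-defensin gene (chr8:21906383-21906682), and Gm29688, a long non-coding RNA gene (chr8:126979389-126979688). Each is printed 5′ to 3′ along the gene, and capitals mark the bases that the region covers.
Defb11: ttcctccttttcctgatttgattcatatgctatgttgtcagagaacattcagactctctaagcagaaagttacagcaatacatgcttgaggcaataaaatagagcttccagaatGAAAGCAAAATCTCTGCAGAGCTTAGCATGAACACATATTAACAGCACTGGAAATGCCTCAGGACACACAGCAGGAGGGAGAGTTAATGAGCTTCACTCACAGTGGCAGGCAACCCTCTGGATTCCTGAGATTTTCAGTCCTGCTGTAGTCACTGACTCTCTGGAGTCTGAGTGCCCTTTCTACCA
Gm29688: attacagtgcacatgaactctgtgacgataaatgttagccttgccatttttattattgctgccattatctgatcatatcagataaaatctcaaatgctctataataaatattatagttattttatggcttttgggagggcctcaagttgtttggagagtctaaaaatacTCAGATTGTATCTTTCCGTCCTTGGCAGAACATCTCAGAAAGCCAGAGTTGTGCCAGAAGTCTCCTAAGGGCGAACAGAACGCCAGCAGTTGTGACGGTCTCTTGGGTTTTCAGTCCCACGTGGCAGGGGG
The region at Defb11 (21906333 to 21906568, score 35) covered 186 bases of its window, from 136 bases before the start to the end of the window. That at Gm29688 (126979128 to 126979519, score 50) covered 131 bases, from 81 bases before the start. Both regions thus reached over the start site, and both scores were below 100. The upper quartile of the scores of all members was 46, so that at Gm29688 lay above it and that at Defb11 below. The letters TGCACAC, a motif described for Zscan4, were searched on both strands and were found in neither window. They stand in 4.4% of all 32851 promoter windows of the table and in 4.72% of the 1420 windows of chromosome 8 outside the dense stretch. The absence of these letters in 2 windows says nothing about the binding of Zscan4 there.

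The first question was how densely the regions lay. Chromosome 8 outside the dense stretch had 2.99 regions per Mb (95% exact Poisson interval 2.69 to 3.3) over 124 Mb. The 17 other autosomes had a median of 1.79 per Mb, from 1.54 on chromosome 18 to 2.09 on chromosome 14. The value of chromosome 8 was 1.67 times that median (1.5 to 1.84), so the density remained above every one of these autosomes with the dense stretch left out. Poisson intervals take regions as independent. In windows of 1 Mb the variance of the count over its mean was 2.89 on chromosome 8, against a median of 1.72 on the other autosomes. The regions were thus clustered, and the Poisson intervals here and below may be too narrow. The regions covered 1104 bp per Mb on chromosome 8, against a median of 737 and a highest value of 937 on the other autosomes. The plot of regions per Mb by chromosome shows chromosome 8 apart from a narrow band.

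**Figure D1:**
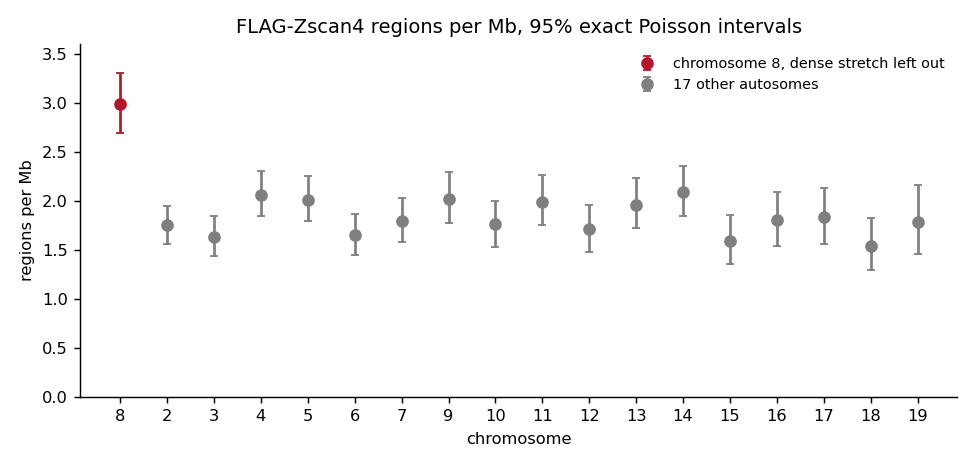
Regions per Mb on chromosome 8 with the dense stretch left out (red, leftmost) and on the 17 other autosomes except chromosome 1 (grey). Points are counts divided by the span used, and bars are 95% exact Poisson intervals. Chromosome 8 stands at 2.99 per Mb, and the others lie between 1.54 and 2.09.

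The greater density was seen in every class of score below 100 and not above it. The authors gave each region a whole number as its score. Its scale is not stated in the sources used here, so it ranks regions within the list and nothing more. The classes are bounded by the quartiles of the whole list (23, 33 and 55) and by 100. Regions with scores of 23 to 32 numbered 112 on chromosome 8, or 0.901 per Mb, which was 1.99 times the median of the other autosomes (1.64 to 2.39, the Poisson interval of chromosome 8 over that median). Those of 33 to 54 stood at 1.85 times (1.5 to 2.25) and those of 10 to 22 at 1.58 times (1.28 to 1.93). In each of these 3 classes chromosome 8 lay above all 17 other autosomes. Regions with scores of 55 to 99 stood at 1.52 times (1.11 to 2.03), and chromosome 4 was above chromosome 8 in that class. Regions with a score of 100 or more numbered 19 on chromosome 8, or 0.153 per Mb (0.092 to 0.239), against a median of 0.17 on the other autosomes. That is a ratio of 0.897 (0.54 to 1.4), and 10 of the 17 other autosomes were higher. At the top of the list chromosome 8 outside the dense stretch thus lay in the middle of the other autosomes, although the interval of the ratio is wide.

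The same contrast was seen in width. Regions of 219 to 247 bp stood at 1.99 times the median of the other autosomes (1.64 to 2.41), those of 248 to 309 bp at 1.73 times (1.41 to 2.11) and those of 310 to 478 bp at 1.94 times (1.59 to 2.34). Regions of 479 to 999 bp numbered 43, or 0.346 per Mb against 0.389, a ratio of 0.889 (0.643 to 1.2). For 1000 bp or more the ratio was 1.23 (0.563 to 2.34), from 9 regions. Chromosome 8 thus lay above all 17 other autosomes in the classes below 479 bp and not in those above, as the plot of rates by score and width shows. Score and width are not independent of each other within the list. Among regions both shorter than 310 bp and below a score of 33, the ratio was 1.9 (1.59 to 2.25). It was 1.83 (1.45 to 2.28) among short regions of higher score, 1.54 (1.21 to 1.93) among wider regions of lower score, and 1.34 (1.07 to 1.66) among those at or above both limits. In the first 3 groups chromosome 8 lay above the 17 other autosomes. In the last it was level with the highest of them, at 0.692 against 0.691 per Mb. The median width was 287 bp on chromosome 8 (interquartile range 242 to 389 bp), against a median of 311 bp over the other autosomes, of which 1, chromosome 19, was lower. The median score was 29 (interquartile range 22 to 46), against 30 over the other autosomes, where it ran from 28.5 to 35. Scores of at least 100 were found for 5.12% of the members (95% Wilson interval 3.3 to 7.86%), against 10.1% (9.14 to 11.1%) of the regions of the other autosomes together.

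**Figure D2:**
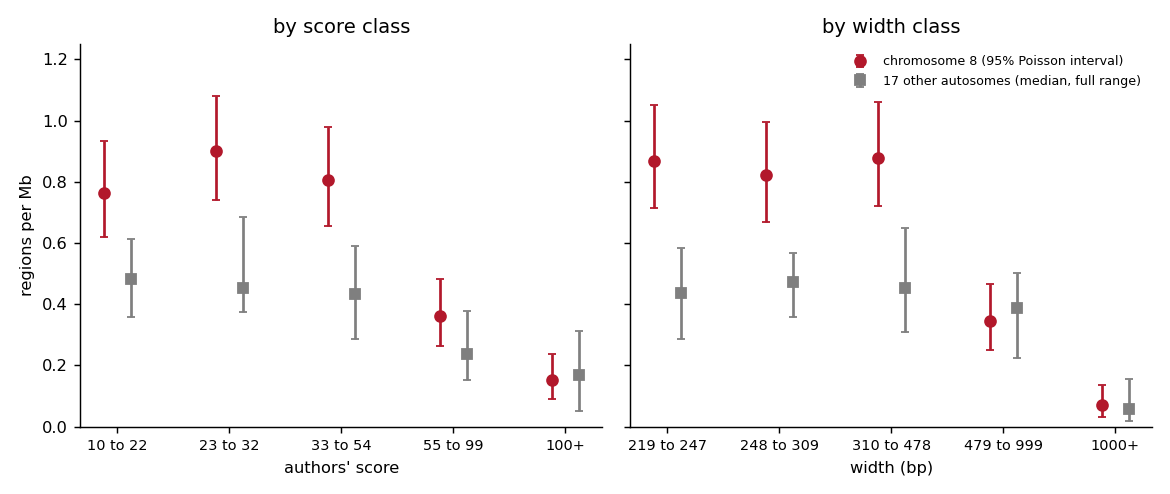
Regions per Mb by class of the authors' score (left) and of width in bp (right). Red circles are chromosome 8 with the dense stretch left out and 95% exact Poisson intervals, and grey squares are the median of the 17 other autosomes with their full range. Chromosome 8 lies above the range for scores below 55 and widths below 479 bp, and inside it for higher scores and greater widths.

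The highest member lay in Slc10a7 (78591492 to 78593069, score 446, width 1578 bp), which encodes a member of the bile acid transporter family of solute carriers. Next came a region 45.9 kb from Hhip, the gene of the Hedgehog-interacting protein (79919419 to 79920571, score 332), and a region in Tusc3, a subunit gene of the oligosaccharyltransferase complex (39155380 to 39155986, score 286). A region 3.3 kb from the C-type lectin gene Cd209b and one 14.5 kb from 4933406B17Rik had a score of 210 each. The following 5 had scores from 156 to 193 and lay near Gm29817, Gm35521, Gm6463 and Gm5749 and inside Pcnx2. Thus 3 of the 10 highest members were in protein-coding genes and 7 in no gene. On 14 of the 17 other autosomes the highest score was above 446. The widest member lay in Tsnax, which encodes translin-associated factor X (125020618 to 125023451, width 2834 bp), and its score was 81.

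The second question was how the members were spread along the chromosome. They were dense over much of the centromeric and middle parts, sparser from 93 to 123 Mb, and denser again in the last 6.29 Mb. Between 3 and 53 Mb there were 168 members, or 3.5 per Mb, and the 5 windows of 10 Mb there had between 3.1 and 4.38 per Mb. The window from 53 to 63 Mb had 11 members, or 1.1 per Mb (95% exact Poisson interval 0.549 to 1.97). From 63 to 93 Mb there were 129 members, or 4.3 per Mb, with the densest window at 83 to 93 Mb (54 members, 5.4 per Mb, 4.06 to 7.05). From 93 to 123 Mb there were 46 members, or 1.53 per Mb, and the sparsest window was at 113 to 123 Mb (10 members, 1.0 per Mb, 0.48 to 1.84). The last 6.29 Mb, from 123 Mb on, had 17 members, or 2.7 per Mb (1.58 to 4.33). These blocks were drawn after the window counts were seen. The density from 93 to 123 Mb was thus close to that of the other autosomes, whose 199 windows of 10 Mb had a median of 1.7 per Mb and a middle range of 1.3 to 2.2. Of the 13 windows of chromosome 8, the last of which is shorter, 9 lay above 2.2 per Mb, against 46 of the 199. None exceeded the highest window of the other autosomes, which had 7.5 per Mb.

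**Figure D3:**
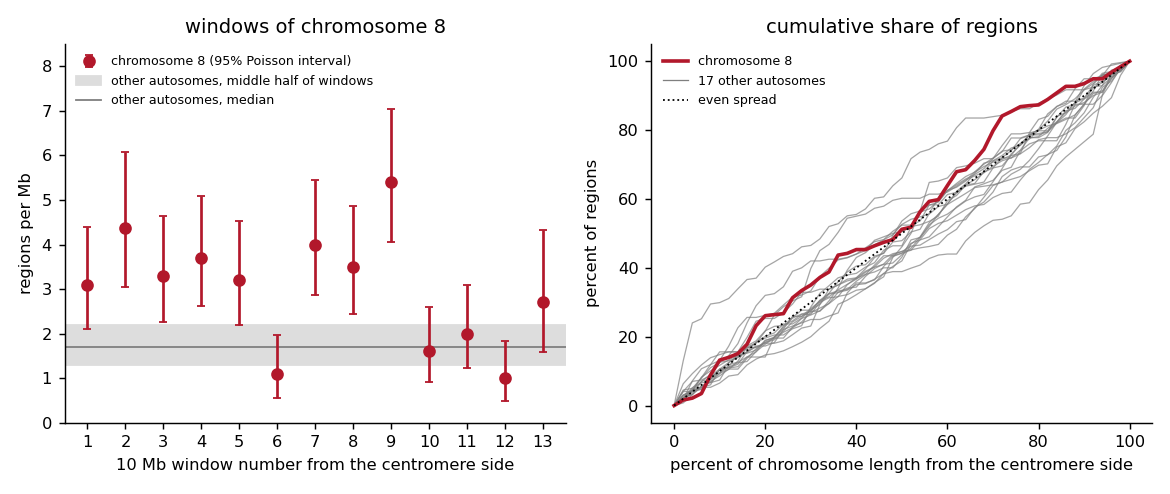
Left, regions per Mb in windows of 10 Mb of chromosome 8, numbered from the centromere side (red, with 95% exact Poisson intervals), over the median (line) and middle range (band, 1.3 to 2.2 per Mb) of the windows of the 17 other autosomes. Right, cumulative percent of regions against percent of chromosome length for chromosome 8 (red) and each other autosome (grey), with an even spread as a dotted line. Windows 6 and 12 are the lowest of chromosome 8 and window 9 the highest.

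Along its length in 3 equal parts, chromosome 8 held 38.0%, 34.8% and 27.2% of the members from the centromere outwards. The length, here and for the cumulative share, includes 19 to 21 Mb, whose regions were left out, so the first part had less usable sequence. The medians over the other autosomes were 31.8%, 31.9% and 34.4%. The last part held a smaller share than on 16 of the 17 other autosomes. The cumulative share of members departed from an even spread by at most 12.1 percentage points, at 72% of the length, and on the other autosomes the largest departure ran from 3.19 points on chromosome 6 to 21.5 on chromosome 14. Despite the greater density, 31 of 124 windows of 1 Mb (25%) held no member, against a median of 26.3% on the other autosomes. The longest gap lay from 52837592 to 57450791, over 4.61 Mb with 27 protein-coding genes. The next lay at 111599786 to 114794616 (3.2 Mb, 19 genes) and 118749492 to 121822347 (3.07 Mb, 37 genes). The longest gap was of ordinary length, since the median of the longest gaps on the other autosomes was 4.78 Mb. The last member (127367462 to 127367837) lay 1.92 Mb before the end of the last annotated gene.

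Windows of 1 Mb with 10 or more members numbered 3. Chromosomes 4 and 14 also had 3 each, and the 17 other autosomes had 12 in all, with a median of 0. The fullest window held 23 regions on chromosome 4 and 21 on chromosome 14. The densest of chromosome 8 was at 78 to 79 Mb with 14 members, around Slc10a7, the neuronal transcription factor gene Pou4f2 and Ttc29. The window at 12 to 13 Mb had 12, among them 2 in Sox1ot, the long non-coding RNA gene that overlaps the neural transcription factor gene Sox1, and 1 in Atp11a, a phospholipid-transporting ATPase gene. The window at 91 to 92 Mb had 11, of which 9 were in Fto. Their median scores were 29, 27.5 and 23, against 29 for all members. A window at 89 to 90 Mb, with 9 members and none in a protein-coding gene, holds Sall1, a zinc finger gene of kidney development that ES cells also use, as its only protein-coding gene.

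Members lay close to each other more often than regions elsewhere. A neighbour within 10 kb was present for 85 of 371 members (22.9%, 95% Wilson interval 18.9 to 27.5%), against a median of 12.5% and a highest value of 16.9% on the other autosomes. A denser chromosome gives more neighbours at a fixed distance, so gaps were also taken relative to their mean. The median gap was 134 kb on chromosome 8, or 0.407 of its mean gap, against a median of 0.498 on the other autosomes, of which 1, chromosome 4, was lower. On this scale chromosome 8 stood near the edge of the other autosomes. Among regions at or above the median score, 13.4% had a close neighbour on chromosome 8, against a median of 8.16% elsewhere, with 14 of 17 autosomes lower. Among those in the upper quartile of scores the share was 3.12% (0.861 to 10.7%) on chromosome 8 and a median of 3.23% elsewhere. The close members formed 40 groups, of which 35 were pairs and 5 had 3 members. The groups of 3 lay in Slc10a7, in Stox2, beside Gm3134, in Klhl2 and in Fto, and 21 of the 40 groups touched a gene body. Without close neighbours the density was 2.3 per Mb (2.04 to 2.58), or 1.43 times the median of the other autosomes.

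The third question was in which classes of genes the members lay. A midpoint inside several genes was counted once, with protein-coding genes placed before long non-coding RNA genes, those before pseudogenes, and any other class last. Protein-coding genes held 170 of 371 members (45.8%, 95% Wilson interval 40.8 to 50.9%), against 42.6% (41.0 to 44.2%) of the 3809 regions of the other autosomes. Long non-coding RNA genes held a further 33 (8.89%, 6.4 to 12.2%, against 7.69%), and pseudogenes held 6 (1.62%, 0.743 to 3.48%, against 1.68%). No gene was at the midpoint of 162 members (43.7%, 38.7 to 48.8%, against 47.5%). None of the 371 lay only in a gene of another class, which allows a share of up to 0.809%. The shares of chromosome 8 lay within the range of the other autosomes for all of these classes.

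The greater density was present in genes and between them. Protein-coding genes covered 41.2% of the base pairs of chromosome 8 and a median of 41.2% on the other autosomes. Per Mb of protein-coding gene there were 3.32 members, against a median of 1.91 and a highest value of 2.5 on the other autosomes. Per Mb outside any gene there were 2.54 members, against a median of 1.63 and a highest value of 2.05. The ratios to the median were thus 1.74 in protein-coding genes and 1.56 outside genes, and in both kinds of sequence chromosome 8 stood above all 17 other autosomes. Windows of 1 Mb were also grouped by the part that protein-coding genes cover. Those with less than 20% covered held a mean of 1.74 members on chromosome 8, against 1.1 regions on the other autosomes. Those with 40 to 60% covered held 4.06, against 2.14, and those with 60% or more held 3.1, against 2.23. Members in no gene lay at a median of 11.2 kb from the nearest gene, against 11.5 kb for regions of the other autosomes, and 7 of 162 (4.32%) lay more than 100 kb away, against 7.35%.

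Of the 1020 protein-coding genes of chromosome 8 outside the dense stretch, 115 (11.3%, 95% Wilson interval 9.48 to 13.4%) had a member in the body, against 1355 of 18334 (7.39%) on the other autosomes. On the 17 single autosomes the share ran from 4.74% to 10.1%, all below chromosome 8. On chromosome 1, which was kept out of the comparison, it was higher, at 14.6%. Counting only regions with scores in the upper quartile of the list, the share was 2.55% on chromosome 8 and a median of 1.94% elsewhere, with 5 autosomes higher. Most of the 115 genes, 84, had 1 member, 21 had 2 and 10 had 3 or more. The share depended on the span of the gene. None of 327 genes under 10 kb had a member, which allows a share of up to 0.917%, against 0.765% on the other autosomes. Among genes of 10 to 50 kb 9.13% had one (6.87 to 12%, against 5.33%), and among those of 100 to 200 kb 45.6% did (33.4 to 58.4%, against 23.2%). For 50 to 100 kb the shares were 19.3% (13 to 27.7%) and 15.2%, which the interval includes, and 3 other autosomes stood above chromosome 8. For 200 kb and more they were 53.3% (39.1 to 67.1%) and 37.1%. The share of chromosome 8 was thus above all 17 other autosomes for spans of 10 to 50, 100 to 200 and 200 kb or more.

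**Figure D4:**
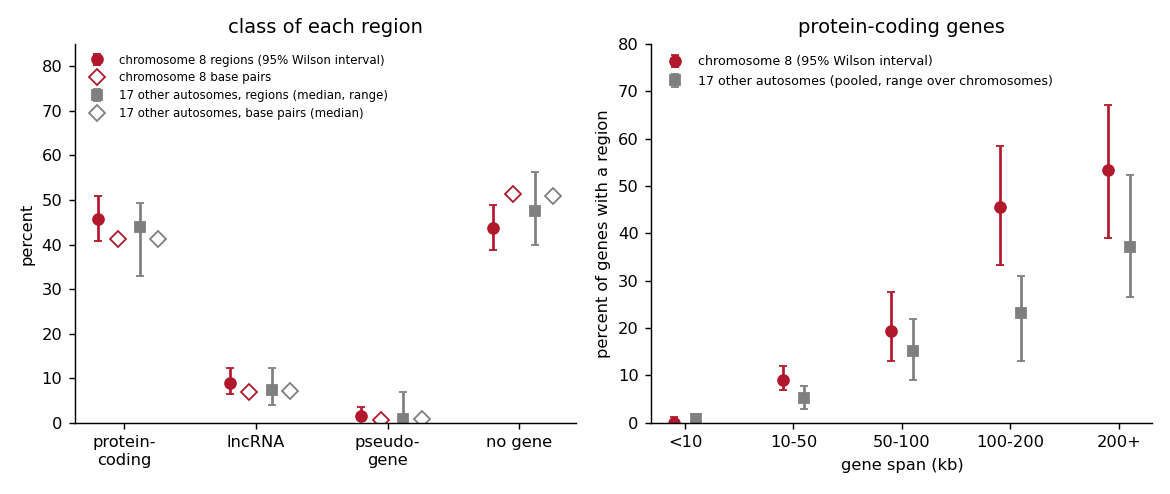
Left, percent of regions by gene class on chromosome 8 (red circles, 95% Wilson intervals) and on the 17 other autosomes (grey squares, median and full range), with the percent of base pairs that each class covers (open diamonds). Right, percent of protein-coding genes with a region by gene span in kb on chromosome 8 (95% Wilson intervals) and on the other autosomes (pooled value, range over chromosomes). Class shares of chromosome 8 lie inside the range of the others, while the share of genes with a region lies above the range in the spans of 10 to 50, 100 to 200 and 200 kb or more.

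The genes with the most members were picked by that number, so each stands above the rate of the chromosome by choice. Fto, which encodes an RNA demethylase and is linked to body mass, had 9 members over 355 kb. From low to high position their scores were 23, 35, 61, 23, 34, 23, 57, 35 and 23. The whole list has quartiles of 23 and 55, so 4 of the 9 lay at the lower quartile and 2 above the upper one. Dlgap2, the gene of a scaffold protein of the postsynaptic density, had 6 over 758 kb, with scores of 144, 46, 66, 13, 29 and 35. The first of them (14132854 to 14133116) stood apart from the rest by its score. Stox2, a gene of the storkhead box family, had 5 over 234 kb (scores 65, 23, 88, 18 and 23). Rbpms, an RNA-binding protein gene, had 5 over 147 kb (scores 82, 49, 42, 18 and 37). All 5 of Rbpms lay between 33858611 and 33923126. Mtus1, a microtubule-associated tumour suppressor gene, had 4 with scores from 18 to 45. Slc10a7, Klhl2, Zmat4, Gatad2a and Nsd3 had 3 each. Gatad2a encodes a subunit of the NuRD chromatin remodelling complex and its members had scores of 23, 29 and 36.

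Very long genes had few members for their size, in contrast to these. The 17 protein-coding genes of 500 kb or more held 20 members over 14.8 Mb, or 1.35 per Mb, and 11 of the 17 had any. The other autosomes gave 0.818 regions per Mb in their 180 genes of that span, which is also below their density as a whole. Csmd1, a complement-regulating membrane protein gene and with 1643 kb the longest, had no member. Sgcz, a sarcoglycan gene of 1144 kb, Inpp4b, an inositol phosphatase gene of 792 kb, and Unc5d, a netrin receptor gene of 573 kb, had none either, and nor did Iqcm and Psd3. In genes of 100 to 200 kb the rate was 5.34 per Mb, against 2.12 on the other autosomes, and in those of 200 to 500 kb it was 3.87 against 1.66. In all spans from 10 kb upwards the rate was higher on chromosome 8, by ratios from 1.38 to 2.52.

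Gene families of chromosome 8 were then taken up by function, counting members in the body or within 10 kb on either side. By that measure 164 of the 1020 protein-coding genes (16.1%) had a member, against 11.4% on the other autosomes. Among the peptides of host defence, 1 of 28 alpha-defensin genes and 1 of 11 beta-defensin genes outside the dense stretch had one. Defa39 lay within 10 kb of a region of score 42 (21711249 to 21711876), and Defb11 was near a pair of regions with scores of 35 and 29. These genes are short, with median spans of 0.973 and 3.31 kb, and no member lay in a body. Of 12 immune genes with other roles, 1 had a member, which was the interferon regulatory factor gene Irf2 (46769890 to 46770109, score 10). Tlr3, the receptor for double-stranded RNA, the interleukin gene Il15 and Nod2, a sensor of bacterial peptides, had none. Each of these 3 lists thus had 1 gene with a member, too few to set its share apart from the 16.1% of the chromosome. That share is also over genes of all spans, with a median of 18.3 kb, so it is not a like measure for the short defensin genes.

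Among enzymes and proteins of metabolism, 2 of 19 carboxylesterase genes, which encode hydrolases of lipids and drugs, had a member. They were Ces1c (score 58) and Ces1a (2 members, highest score 35). Of the 4 metallothionein genes, whose products bind zinc and copper, Mt3 had one within 10 kb (94149272 to 94149509, score 23). Solute carriers had 4 of 21: Slc10a7 (highest score 446), the phosphate transporter gene Slc20a2 (50), the noradrenaline transporter gene Slc6a2 (29) and Slc35f3 (29). The region counted for Slc20a2 lay in the body of its neighbour Smim19, and that of Slc6a2 was also counted for Ces1a. None of the 4 potassium channel genes, Kcnu1, Kcnn1, Kcng4 and Kcnk1, had a member. In the obesity locus Fto alone of 5 genes had members in its body or within 10 kb. Its neighbours Rpgrip1l, a gene of the primary cilium, and the homeobox genes Irx3, Irx5 and Irx6 had none by that measure, while the long non-coding RNA gene Irx3os held a region of score 18. With counts of 2 of 19 and 4 of 21, carboxylesterases and solute carriers lay on either side of the share of the chromosome.

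Cell adhesion genes of the cadherin family had a member in 3 of 8 cases. These were Cdh13 (2 members, scores 23 and 14), Cdh11 (score 23) and Cdh1, the E-cadherin gene that ES cells use to adhere (a region of score 21 within 10 kb, 106674708 to 106675301). Of 15 genes of the ADAM and ADAMTS proteases, which cut proteins at the cell surface, 2 had a member: Adam32 (24927441 to 24927708, score 73) and Adam9 (25001887 to 25002899, score 29). The 10 genes listed as long synaptic and tumour suppressor genes had members in 6, with 13 members over 9.07 Mb. Tusc3 (score 286) and Dlgap2 (highest 144) held the strongest, and Wwox (44), Nrg1 (42), Cdh13 (23) and Tenm3 (13) the others. At the density of the chromosome 27.1 members would fall on a span of that length, so the list held fewer than its length would give, as did the longest genes in general.

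Nuclear factors gave the following counts. Of 25 zinc finger genes named Zfp, 2 had a member in the body, Zfp423 (2 members, highest score 42) and Zfp827 (2, highest 29). Of 12 chromatin genes 3 had one: Nsd3, a histone methyltransferase gene (25615980 to 25616406, 25652633 to 25652881 and 25679898 to 25680178, with scores of 35, 35 and 23), Ankrd11 (score 47) and the chromodomain helicase gene Chd9 (score 11). Ctcf, the insulator-binding protein gene, Kat6a, an acetyltransferase gene, and Smarca5, the ISWI remodeller gene, had none. Of the 4 telomere genes on the chromosome 1 had a member, Tnks, which encodes the telomere-associated enzyme tankyrase (34924231 to 34924479, score 18). The shelterin genes Terf2, Terf2ip and Acd, whose products cap telomeres, had none within 10 kb. Among 7 genes of pluripotency and the early embryo, Sall1 had a region within 10 kb (89052995 to 89053850, score 40), and Klf2, Zfp42, Smad1, Sfrp1, Hand2 and Tubb3 had none. All of these counts rest on few genes, and genes with no member may still be bound below the authors' threshold.

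Non-coding genes showed a similar picture. Of 700 long non-coding RNA genes 37 held a member (5.29%, 95% Wilson interval 3.86 to 7.2%), against 3.25% (2.93 to 3.6%) on the other autosomes. Gm6213 held the highest (39366905 to 39367202, score 126), followed by Gm28516 (52), Gm46043 (50) and Gm29688 (50). Some of the 37, among them Gm46043, held only regions that also lay in a protein-coding gene and were counted there as well. Of 392 pseudogenes 6 held a member (1.53%, 0.703 to 3.3%), against 0.768%. Gm7434 held 2 of them, with scores of 140 and 74. Of 40 microRNA hairpin genes none held one, and Mir7238 and Mir138-2 had a region at 8972 and 9618 bp.

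The ends of genes hold promoters and sites of polyadenylation. A gene end of any class lay no more than 1 kb from the midpoint of 30 of 371 members (8.09%, 95% Wilson interval 5.72 to 11.3%), against a median of 7.39% on the other autosomes, where 4 were higher. The highest lay 282 bp from an end of Lrp2bp (46010733 to 46010993, score 96), which encodes a protein that binds the endocytic receptor megalin. Next were a region 759 bp from Gm3134 (score 75), one 558 bp from Vps37a, a gene of endosomal sorting that neighbours Mtmr7 (40551572 to 40551813, score 58), and the one 115 bp from the start of Gm29688 (50). The remaining 6 of the first 10 lay at Gm2225 (49), B430010I23Rik within Mtus1 (45), Gm7869 (42), Gm35572 (42), 1700128E19Rik (41) and 5830408C22Rik (40, tied with 1700104B16Rik and Gm35850). None of the last 6 was at the end of a protein-coding gene. The share at gene ends lay within the range of the other autosomes. How much of the sequence lies this close to a gene end was not measured. Whether 8.09% is few or many for that sequence thus cannot be said.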

How the data were processed

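The data are 1 list of regions from an anti-FLAG chromatin immunoprecipitation of Zscan4-overexpressing J1 ES cells, which the authors deposited with a score per region in whole numbers. The list was matched to that sample because its region names begin with Zscan4. Per the submitters' processing notes, the tools were Bowtie2, MACS2, cutadapt and deepTools, on the mm10 build. Their versions, the peak threshold and the control are not stated there. Regions are numbered up to 5005, of which 4973 were used here. Read counts per region were not used here, so depth and the precision it gives are unknown.

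Members and gene lists were chosen with earlier results of these data known. Genes came from RefSeq (assembly GRCm38.p6, which shares its main chromosomes with mm10), with 46714 autosomal genes, 20560 of them protein-coding, and positions below 3 Mb left out of the spans. Each region was placed by its midpoint. Rates have 95% exact Poisson intervals and shares 95% Wilson intervals, and the limit for a count of 0 is 3 counts of the total. Named genes were the 10 with most members, those at or nearest to the 10 highest scores, those at the 10 highest scores within 1 kb of a gene end, and up to 4 per list by score; genes named without a member, the widest region, dense windows and non-coding genes were picked after their values were seen. Alternatives varied the score threshold, the stretch left out, dense windows, merging, overlap, distances and the inclusion of chromosome 1. Computation used Python 3.11.15, numpy 2.4.6, pandas 2.3.3, scipy 1.17.1 and matplotlib 3.10.9, tested on simulated data.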

Additional observations from a re-analysis of the deposited data

How the results depend on the processing

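Of 47 values under alternatives, 34 stayed within the 95% interval of the value as reported. With regions at or above the 75th percentile score, the ratio of regions per Mb was 1.24 and 4 of the 17 other autosomes were higher. At or above the median score it was 1.55, without dense windows 1.56, and with 18 to 22 Mb left out or close regions merged 1.65. The share with a neighbour within 10 kb was 13.4% at or above the median score (against 8.16% elsewhere), 3.12% at or above the 75th percentile (against 3.23%), and 62.0% for a distance of 100 kb, against a median of 44.5% elsewhere. The share at gene ends was 4.69% at or above the 75th percentile score, 27.5% with a limit of 5 kb (against 29.0% elsewhere) and 2.43% with protein-coding genes only (against 2.88%). Protein-coding genes with a region made up 5.29% and 2.55% at the 2 score limits, against medians of 3.97% and 1.94%. By construction these limits also raised the median score, to 50 and 74.5 (against 53 and 83). The median width under them was 327 and 433 bp (against 376 and 569 bp). A larger distance can only raise a share, and leaving out the ends of other genes can only lower it. Fewer regions can only lower the percent of genes with a region. For the remaining values the cause was not tested. No paired analysis was possible because the list comes from 1 immunoprecipitation. Its depth is unknown, so the least score at which a region would be listed could not be compared with another library.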

Other observations

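Chromosome 8 was also set beside chromosome 1, which was kept out of the comparison. Chromosome 8 had 2.99 regions per Mb and chromosome 1 had 2.54, from 489 regions, so both lay above the highest of the 17 other autosomes (2.09 per Mb). In the score class of 33 to 54, chromosome 8 stood at 0.805 per Mb and chromosome 1 at 0.801. In the class of 100 or more, chromosome 8 had 0.153 per Mb, against 0.218 on chromosome 1. The share of regions with a neighbour within 10 kb was 22.9% on chromosome 8 and 14.3% on chromosome 1. Protein-coding genes with a region made up 11.3% on chromosome 8 and 14.6% on chromosome 1, and the median span of protein-coding genes was 18.3 kb on chromosome 8 and 28.1 kb on chromosome 1.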
